A study of Mus musculus with 8 samples.

Results

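The distal and proximal forelimb segments of E16.5 mouse embryos were compared through the transcriptomes of *Hic1* lineage cells, after cartilage and epithelial cells had been set aside. A cell was kept if it had at least 3000 UMIs (unique molecular identifiers, 1 per captured transcript), at most 10% of its UMIs from mitochondrial genes, fewer than 3 UMIs in all of *Krt5*, *Krt14*, *Krt15*, *Epcam* and *Perp*, and fewer than 3 of the cartilage genes *Col2a1*, *Col9a1*, *Col9a3*, *Acan*, *Matn1*, *Lect1* and *Hapln1* at 2 or more UMIs. These limits kept 16291 cells, 7669 distal and 8622 proximal, of the 19556 E16.5 cells and the 53085 cells of all 8 libraries that passed the UMI and mitochondrial limits. UMIs were then summed per library, and all genes other than Hox and ribosomal protein genes were compared in CPM, a level scaled to all UMIs of the kept cells of a library.

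The study followed cells that had expressed *Hic1*, a transcriptional repressor of mesenchymal progenitors, through limb development by droplet RNA sequencing. Both E16.5 libraries came from C57BL/6J embryos of the genotype Hic1CreERT2/CreERT2;Rosa26LSLtdTomato/tdTomato. In these embryos a tamoxifen-dependent Cre, expressed from *Hic1*, switches on the red reporter tdTomato for good. Dams of both groups had received 7.5 mg tamoxifen by gavage at embryonic day 10, so the reporter marks cells that expressed *Hic1* around that time and their progeny, whether or not they still express it. The distal library held the distal zeugopod and the autopod, that is the lower forearm, wrist and paw. The proximal library held the distal stylopod, the proximal zeugopod and the elbow joint between them. In each, segments of several embryos of both sexes were pooled, and tdTomato+ cells negative for blood and endothelial surface proteins were sorted. Each segment is 1 library, so no test was possible, no p-value is given, and every interval below is an exact 95% interval that covers counting error only. The distal library was processed with Cell Ranger 6.0.1 and the proximal one with 3.0.2, so that limb segment, embryo pool, library and software version cannot be told apart. A sum over a library also does not separate fewer cells of a kind from less RNA in each.

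Limb mesenchyme forms tendons, dermis, muscle connective tissue, joints and the sheaths of nerves and vessels, beside cartilage. Its position along the limb is recorded in transcription factors. Hoxa13 and Hoxd13 mark the autopod, whereas the homeodomain factors Meis1 and Meis2 mark the proximal limb in the early bud, where retinoic acid is high. Signals of the Bmp, Fgf, Wnt and hedgehog families shape the segments as they grow.

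The kept cells had the position codes their labels give. *Hoxa13* was at 30.2 CPM in distal and 0.562 CPM in proximal cells, and *Hoxd13* at 75.8 and 2.12 CPM. The forearm gene *Hoxa11* was at 46.8 and 10.7 CPM. *Hoxb2* had the opposite order with 2.40 and 18.4 CPM, as did *Hoxc6* with 2.02 and 14.1 CPM. The reporter was found in 99.2% of distal and 99.9% of proximal cells, while *Hic1* itself was at 30.1 and 28.5 CPM. Depth was similar, with medians of 17180 and 17856 UMIs per cell and totals of 142745141 and 167346272 UMIs, and 17 cell barcodes were shared by the libraries. The median mitochondrial share was 2.21% and 1.89%. Of the other cell types that the sort could have let through, defining genes were rare in both. The summed level was 6.00 and 4.97 CPM for 13 immune genes, 7.10 and 13.9 for 10 myogenic genes, 21.7 and 34.7 for 10 glial genes, and 40.7 and 52.6 for 10 endothelial genes. The 10 erythroid genes summed to 83.1 and 130.2 CPM. The 18 muscle fibre genes summed to 53.0 CPM in distal and 181 CPM in proximal cells. The epithelial filter genes still summed to 9.46 and 21.6 CPM, and the 7 cartilage filter genes to 93.0 and 92.7 CPM. Single cartilage genes had both orders, with *Matn1* at 0.462 and 7.85 CPM and *Acan* at 10.8 and 5.37 CPM. Genes used to read sex were kept out of all counts, since both sexes were pooled. The X-inactivation RNA *Xist* was at 669 and 357 CPM, and the Y-linked genes had no common order, with *Eif2s3y* at 17.3 and 43.9 CPM, *Ddx3y* at 51.0 and 58.3, *Uty* at 10.9 and 9.29 and *Kdm5d* at 6.24 and 4.56 CPM.

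More genes were higher in the distal than in the proximal segment. Of 6070 genes that reached 20 CPM in at least 1 of the libraries, 190 were at least 2-fold higher in distal cells and 72 in proximal cells, on the ratio of CPM + 1. These are 3.13% and 1.19% of the genes. They were chosen by this same comparison of CPM, so their values are a description with no test. Differences were mostly modest, as 4880 genes (80.4%) lay within 1.5-fold and only 19 distal-higher and 11 proximal-higher genes reached 4-fold. The median gene was at a log2 ratio of 0.08, distal over proximal. Scaling by the median of gene ratios instead shifts every log2 ratio by -0.13 and gives 118 distal-higher and 104 proximal-higher genes, so the share of distal-higher genes among those past 2-fold is 53.2% in place of 72.5%. At the limit itself, *Ncam1* (188 and 93.3 CPM) and *Pcolce* (198 and 398 CPM) were just inside, while *Usp11* (20.5 and 9.78 CPM) and *Cenpw* (27.9 and 56.6 CPM) were just outside.

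**Figure D1:**
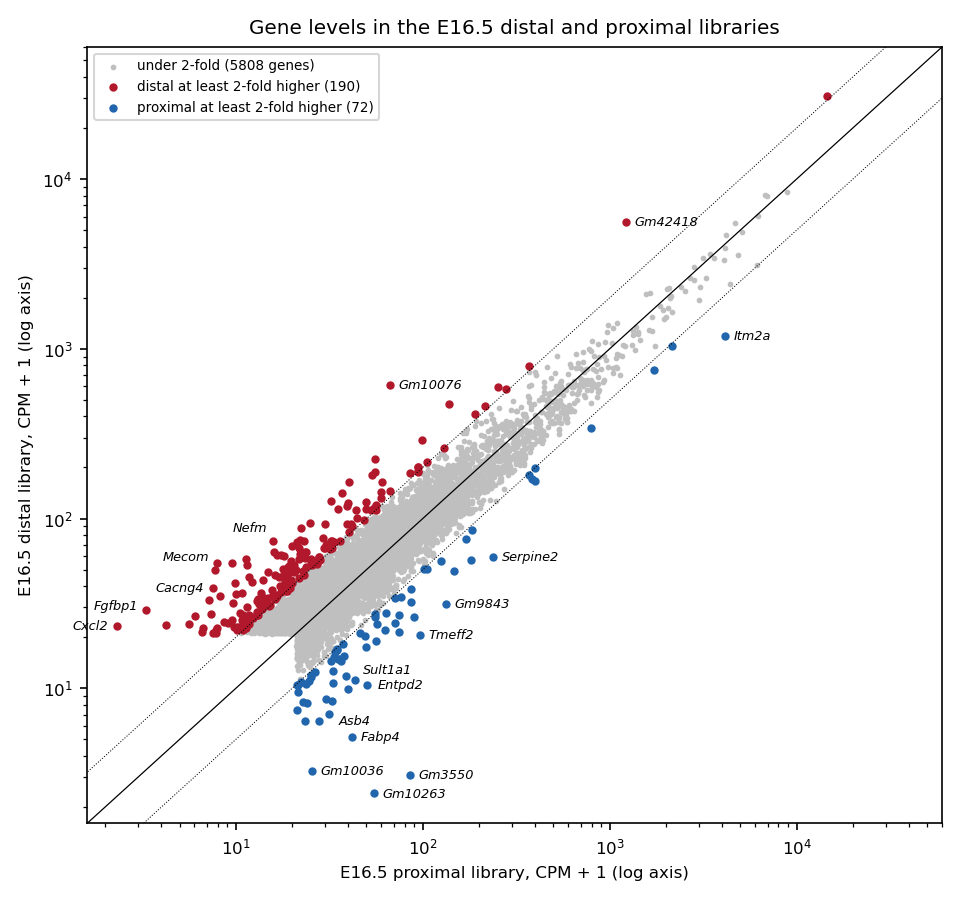
Level of each of the 6070 genes that reached 20 CPM in a library, proximal on the x axis and distal on the y axis, in CPM + 1 on log scales, with a solid line for equal levels and dotted lines at 2-fold. Red points are the 190 distal-higher and blue points the 72 proximal-higher genes, and some named genes are labelled. Most genes lie between the dotted lines, and *Mecom*, *Nefm* and *Cxcl2* stand above them while *Fabp4*, *Entpd2* and *Itm2a* stand below.

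The distal-higher genes of largest ratio included a transcription factor gene, chemokine genes and genes best known from neurons. *Mecom*, a zinc-finger transcription factor, was at 53.8 CPM in distal and 6.95 in proximal cells, a 7.74-fold difference (7.28 to 8.24). It lies at chr3:29951296-30548008 (mm10, minus strand). It was detected in 37.3% of distal and 9.65% of proximal cells, so the difference was spread over many cells. *Fgfbp1*, which encodes a carrier that frees Fgf ligands from the matrix, was at 28.1 and 2.32 CPM, 12.1-fold apart (10.9 to 13.4). Its distal UMIs were concentrated, with 89.4% of them in the top 5% of cells. *Fgfbp1* is also abundant in epithelium, at 314 CPM in 69 distal and 450 CPM in 901 proximal cells with at least 30 epithelial UMIs. When epithelial and cartilage cells were left in, its log2 ratio turned to -1.16, with 1283 proximal and 218 distal cells over the epithelial limit.

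Several membrane and secreted proteins followed. *Cacng4*, an auxiliary subunit of calcium channels and glutamate receptors, was at 37.8 CPM in distal and 6.51 in proximal cells (5.82-fold, 5.45 to 6.21). The anion exchanger gene *Slc26a7* was at 52.5 and 10.5 CPM (5.0-fold, 4.75 to 5.27), and the adhesion receptor gene *Adgrg2* at 34.2 and 7.24 CPM (4.72-fold, 4.43 to 5.03). *Hs3st3b1*, whose enzyme adds a rare sulphate to heparan chains, was at 25.5 and 5.05 CPM. *Grp*, which encodes gastrin-releasing peptide, was at 32.3 and 6.17 CPM, with 89.1% of its distal UMIs in the top 5% of cells.

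The neurofilament genes *Nefm* and *Nefl* and the stathmin gene *Stmn2*, all known from axons, were higher distally. *Nefm* and *Nefl* encode the middle and light neurofilament subunits and are neighbours on chromosome 14. *Nefm* was at 73.0 CPM in distal and 14.9 in proximal cells (4.90-fold, 4.69 to 5.12). *Nefl* was at 44.3 and 10.7 CPM (4.13-fold, 3.92 to 4.35). They were detected in 24.7% and 18.9% of distal cells, and in 7669 distal cells their levels had a Pearson correlation of 0.41, which depth per cell may share. *Stmn2*, a microtubule regulator of growing axons, was at 48.6 and 6.72 CPM (7.24-fold, 6.79 to 7.71) but in fewer cells, with 79.7% of its distal UMIs in the top 5% of cells. Of 52 neuronal-type genes on the list, 11 were at the minimum level, 4 of them were higher distally and the cell adhesion gene *Ntm* was higher proximally (49.6 and 104 CPM). The fourth distal gene was the cadherin gene *Cdh4* at 35.5 and 9.81 CPM.

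The chemokine genes *Cxcl1*, *Cxcl2*, *Ccl2* and *Ccl7* were higher distally, and in both libraries most of their UMIs lay in few cells. The top 5% of cells held between 83.5% and 100% of the distal and between 88% and 100% of the proximal UMIs of each. *Cxcl2* and *Cxcl1* encode neutrophil attractants, and *Ccl7* and *Ccl2* attract monocytes. *Cxcl2* was at 22.2 CPM in distal and 1.30 in proximal cells, 17.1-fold apart (14.9 to 19.7), and *Cxcl1* at 92.9 and 24.0 CPM (3.86-fold, 3.73 to 4.0). *Ccl7* was at 22.5 and 3.24 CPM (6.94-fold, 6.34 to 7.62), and *Ccl2* at 74.0 and 21 CPM (3.53-fold, 3.39 to 3.66). All 3174 distal *Cxcl2* UMIs lay in 4.64% of cells, 111 cells held 5 or more, and 1 cell held 177. With cells thinned to 3000 UMIs, the distal share of cells with a *Cxcl2* UMI was 1.86%, no higher than the 2.90% of the 69 distal epithelial cells. The share alone is therefore not read as expression. Unthinned, those epithelial cells held 5 *Cxcl2* UMIs in all, or 2.01 CPM. The 901 proximal epithelial cells held 419 *Cxcl2* UMIs, or 11.8 CPM. The order of the segments was thus reversed in epithelium (log2 ratio -2.08), at levels below the minimum. In distal cells *Cxcl2* correlated with *Cxcl1* (Pearson r 0.45 over 7669 cells) and *Ccl7* with *Ccl2* (0.39), as a description of cells of 1 library. Among 29 chemokine, receptor and cytokine genes, 10 were at the minimum, 3 of these were higher distally, and 1, the alarmin gene *Il33*, was higher proximally with 7.70 and 29.2 CPM (3.79-fold, 3.55 to 4.05). *Cxcl2* itself was not on that list. Some immediate early genes, which respond to stress and growth signals, were also higher distally. *Egr1* was at 164 and 39.4 CPM, *Fos* at 413 and 189.8 CPM and *Zfp36* at 54.1 and 24.1 CPM, while the other 28 of 31 such genes stayed within 2-fold (list median log2 0.27). Their part in the chemokine values was not tested.

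The promoters of *Cxcl1* and *Cxcl2* are shown because the genes are neighbours, with starts 12.7 kb apart on chromosome 5, and their levels were correlated in distal cells. The letters below are the 250 bases before each start in the RefSeq annotation of GRCm38.p6, plus strand, 5′ to 3′. Capitals mark the longest run of bases common to both, which was looked for after the values had been seen.
Cxcl1 promoter, chr5:90890995-90891244: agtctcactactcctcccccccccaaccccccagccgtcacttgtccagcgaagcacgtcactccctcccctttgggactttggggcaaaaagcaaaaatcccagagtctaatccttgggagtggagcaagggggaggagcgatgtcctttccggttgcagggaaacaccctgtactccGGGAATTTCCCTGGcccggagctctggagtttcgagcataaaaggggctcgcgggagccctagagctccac
Cxcl2 promoter, chr5:90903649-90903898: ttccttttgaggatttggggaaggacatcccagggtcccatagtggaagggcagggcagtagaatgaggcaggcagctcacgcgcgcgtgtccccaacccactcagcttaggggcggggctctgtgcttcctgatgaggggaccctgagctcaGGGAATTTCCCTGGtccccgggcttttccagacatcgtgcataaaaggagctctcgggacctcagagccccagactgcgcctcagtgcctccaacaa

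The shared run GGGAATTTCCCTGG begins 71 bases before the *Cxcl1* start and 97 bases before that of *Cxcl2*. Searched on both strands, it occurs in 2 of 27025 promoters of 300 bases, that is 0.00740%. Its first 10 bases, GGGAATTTCC, spell a form of the binding site known for NF-kB, and occur in 24 promoters (0.0888%), those of *Cxcl1*, *Cxcl2*, *Cxcl3* and *Nfkbia* among them. A match of letters is no evidence of binding in these cells.

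The proximal-higher genes of largest ratio included *Meis2* and single markers of fat, muscle interstitium and pericytes. The muscle interstitial and pericyte lists are given further on. *Meis2* was at 8.85 CPM in distal and 39.0 in proximal cells, 4.41-fold apart (4.15 to 4.69). *Fabp4*, the fatty-acid carrier of adipocytes, was at 4.19 and 40.9 CPM (9.76-fold, 8.98 to 10.6), with 95% of proximal UMIs in the top 5% of cells and 250 UMIs in the highest cell. *Entpd2*, an ectonucleotidase of muscle interstitial fibroblasts, was at 9.49 and 49.3 CPM (5.19-fold, 4.90 to 5.50). *Itm2a*, which encodes a membrane protein of chondrogenic and myogenic tissue, was at 1189 and 4134 CPM (3.48-fold, 3.46 to 3.49) and was detected in 95.1% and 97.9% of cells. The transmembrane protein gene *Tmeff2* was at 19.6 and 95.8 CPM, the protease inhibitor gene *Serpine2* at 58.4 and 237 CPM, and *Asb4*, an adaptor of ubiquitin ligases, at 6.01 and 30.3 CPM. These 3 genes differed by 4.90-fold (4.70 to 5.10), 4.06-fold (3.97 to 4.16) and 5.05-fold (4.70 to 5.43). *Srpx2*, *Sult1a1* and the pericyte potassium channel gene *Kcnj8* were between 5.39 and 10.2 CPM in distal and between 22.3 and 42.2 CPM in proximal cells. The fast-muscle myosin light chain gene *Mylpf* was at 5.46 and 27.0 CPM and *Des* at 13.9 and 35.2 CPM. They were the only 2 of 18 muscle fibre genes at the minimum, and the summed muscle fibre level given above moves with them, so the part of muscle RNA in these values was not tested.

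The *Meis2* promoter is shown because *Meis2* was the only transcription factor gene among the 15 proximal-higher genes of largest ratio and because TTTATTG, in capitals, is the reverse complement of CAATAAA, letters of a site known for HOX13 proteins. The 250 bases before its start are given 5′ to 3′ on the minus strand of GRCm38.p6, from RefSeq.
Meis2 promoter, chr2:116064620-116064869: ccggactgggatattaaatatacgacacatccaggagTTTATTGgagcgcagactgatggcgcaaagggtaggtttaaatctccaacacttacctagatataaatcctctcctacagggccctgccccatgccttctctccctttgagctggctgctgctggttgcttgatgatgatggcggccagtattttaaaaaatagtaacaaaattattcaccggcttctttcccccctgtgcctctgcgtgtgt

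The match lies 213 bases before the start. Over windows from 250 bases before to 50 after a start and on both strands, CAATAAA was in 4.84% of all 27025 promoters and in 2.48% of the 4715 promoters matched to genes at the minimum level. Among genes with a promoter in the table, it was in 4 of 123 distal-higher ones, *Hand2* among them. It was also in 3 of 47 proximal-higher ones, with *Meis2* and *Wnt2* among these. A second HOX13-type word, TTTACGA, was in 0.625% of all promoters, 0 of the 123 and 1 of the 47. These counts are too small to set the groups apart from the rest.

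The counts of listed genes from here on can be read beside the 3.13% of all genes that were higher distally and the 1.19% that were higher proximally, and beside the median of 0.08. They are descriptions with no test. In 3 alternatives the median-of-ratios scaling was used, cells were limited to a common range of the nuclear RNA *Malat1*, or the median of genes of like genomic span was subtracted, and genes that were then below 2-fold are given beside their list or with the gene spans. Regulators of limb position other than Hox genes come first. Of 31 autopod and limb patterning regulators, 9 were at the minimum, 3 of these were higher distally and 0 proximally, with a median log2 ratio of 0.74. *Bcl11a*, a zinc-finger factor, was at 59.0 CPM in distal and 17.2 in proximal cells (3.43-fold, 3.29 to 3.58). The forelimb factor gene *Tbx5* was at 61.2 and 21.1 CPM (2.90-fold, 2.79 to 3.02). *Hand2*, which acts upstream of *Shh* in posterior mesenchyme, was at 66.5 and 28.9 CPM (2.30-fold, 2.22 to 2.38). *Shox2*, a stylopod regulator on the same list, had the other order at 125 and 198 CPM and stayed within 2-fold. Below the minimum level, and chosen after their values were seen, *Msx1* was at 15 and 1.38 CPM and *Meis1* at 4.31 and 13.6 CPM. Of 24 proximal identity and girdle regulators, 12 were at the minimum, with *Meis2* higher proximally, *Irx5* higher distally (55.9 and 27.1 CPM) and a median of 0.16.

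Of 6 genes of hedgehog reception and targets at the minimum, 3 were higher distally and 0 proximally. Hedgehog ligands bind Ptch1 with the help of Cdon, Boc and Gas1, Smo passes the signal on, and Gli3 is the main transcriptional repressor. The genes past 2-fold were *Ptch1* (47.2 CPM in distal and 19.5 in proximal cells, 2.41-fold, 2.31 to 2.52), *Gli3* (56.7 and 24.2 CPM, 2.34-fold) and *Cdon* (82.4 and 39.4 CPM, 2.09-fold). *Boc*, *Smo* and *Gas1* were also above their proximal level but within 2-fold, at log2 ratios of 0.80, 0.31 and 0.40, and the list median was 0.92.

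Of the genes on the Bmp list past 2-fold, ligands and targets were higher distally and an antagonist proximally. The antagonist *Sostdc1*, counted on the Wnt list, was higher distally. The ligand genes *Bmp4* and *Bmp2* were at 51.4 and 43.4 CPM in distal against 18.3 and 20.6 CPM in proximal cells (2.81-fold, 2.69 to 2.93, and 2.10-fold, 2.02 to 2.19). The target *Id1* was at 201 and 93.2 CPM, and *Smad7*, a feedback inhibitor, at 92.2 and 40.4 CPM. In contrast, the antagonist follistatin (*Fst*) was at 74.6 and 169 CPM, 2.26-fold higher proximally (2.21 to 2.31), as was the matricellular gene *Smoc2* at 169.8 and 382 CPM (2.25-fold). *Bmp2* was below 2-fold under median-of-ratios scaling (0.91) and in the *Malat1* range (0.86), *Id1* under the former (0.97), *Smad7* (0.90) and *Smoc2* (-0.93) in the latter, and *Fst* after span subtraction (-0.94). Thus 4 of 19 genes at the minimum were higher distally and 2 proximally, with a list median of 0.34.

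The Wnt list had genes of both orders. *Wnt4* was at 36.9 CPM in distal and 14.7 in proximal cells (2.51-fold, 2.40 to 2.64), whereas *Wnt2* was at 14.4 and 37.1 CPM (2.57-fold higher proximally, 2.45 to 2.70). *Wnt4* is also abundant in epithelium, at 196 CPM in distal and 216 in proximal epithelial cells, and with epithelial and cartilage cells left in its log2 ratio turned to -0.32. *Axin2*, a general target of canonical Wnt signalling, was at 32.7 and 13 CPM, the modulator *Dkk3* at 46.8 and 18.0 CPM, and the antagonist *Sostdc1* at 40.8 and 19.1 CPM. Of 13 genes at the minimum, 4 were higher distally and 1 proximally (median 0.56). Among 10 genes of Fgf signalling only the ligand *Fgf2* passed 2-fold (33.0 and 15.1 CPM), with log2 ratios of 0.95, 0.66 and 0.83 under median-of-ratios scaling, in the *Malat1* range and after span subtraction. The receptor *Fgfr1* came close at 239 and 124 CPM (median 0.60). Among 10 retinoid genes only *Cyp26b1*, which degrades retinoic acid, passed it, at 47.5 and 13.8 CPM (3.45-fold, 3.29 to 3.62), with a list median of 0.10.

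Growth factors of the Igf, Pdgf and Tgf-beta families included 35 genes at the minimum, 4 higher distally and 1 proximally (median 0.31). The summed level of this list had the other order, at 20381 CPM in distal and 24413 in proximal cells. *Igf1*, a growth factor that muscle interstitium and tendon produce, was at 340.2 CPM in distal and 789 in proximal cells, 2.32-fold apart (2.30 to 2.34), and was found in 48.3% and 84.4% of cells. The Tgf-beta binding protein gene *Ltbp1* (123 and 38.9 CPM), the Tgf-beta target *Tgfbi* (117 and 38.5 CPM), *Ctgf* (34.7 and 9.05 CPM) and *Igfbp7* (191 and 93.2 CPM) had the opposite order. Over 8 fetal growth genes at the minimum, 0 differed past 2-fold (median -0.08).

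Of 27 axon guidance genes, 6 were higher distally and 0 proximally, with a median of 0.70. Many of them are long, and among all genes of more than 100 kb 9.86% were higher distally and the median was 0.47. After the median of genes of like span was subtracted, 4 of the 6 were below 2-fold. *Robo2*, a Slit receptor, was at 141 CPM in distal and 35.8 in proximal cells (3.93-fold, 3.81 to 4.04), and the ligand *Slit3* at 55.2 and 26 CPM (2.12-fold). The plexin gene *Plxna4* was at 20.9 and 6.87 CPM, the ephrin gene *Efna5* at 100.1 and 43.8 CPM, *Sema3f* at 27.3 and 12 CPM and *Flrt2* at 66.3 and 30.9 CPM. Of 27 forkhead, Ebf and other mesenchymal transcription factors at the minimum, 5 were higher distally and 0 proximally (median 0.35). *Foxp2* was at 62.2 and 15.1 CPM (4.13-fold, 3.95 to 4.32), *Foxp1* at 179 and 52.2 CPM (3.44-fold), *Prrx2* at 119 and 55.4 CPM and *Zeb2* at 259 and 128 CPM, with *Mecom* as the other one.

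**Figure D2:**
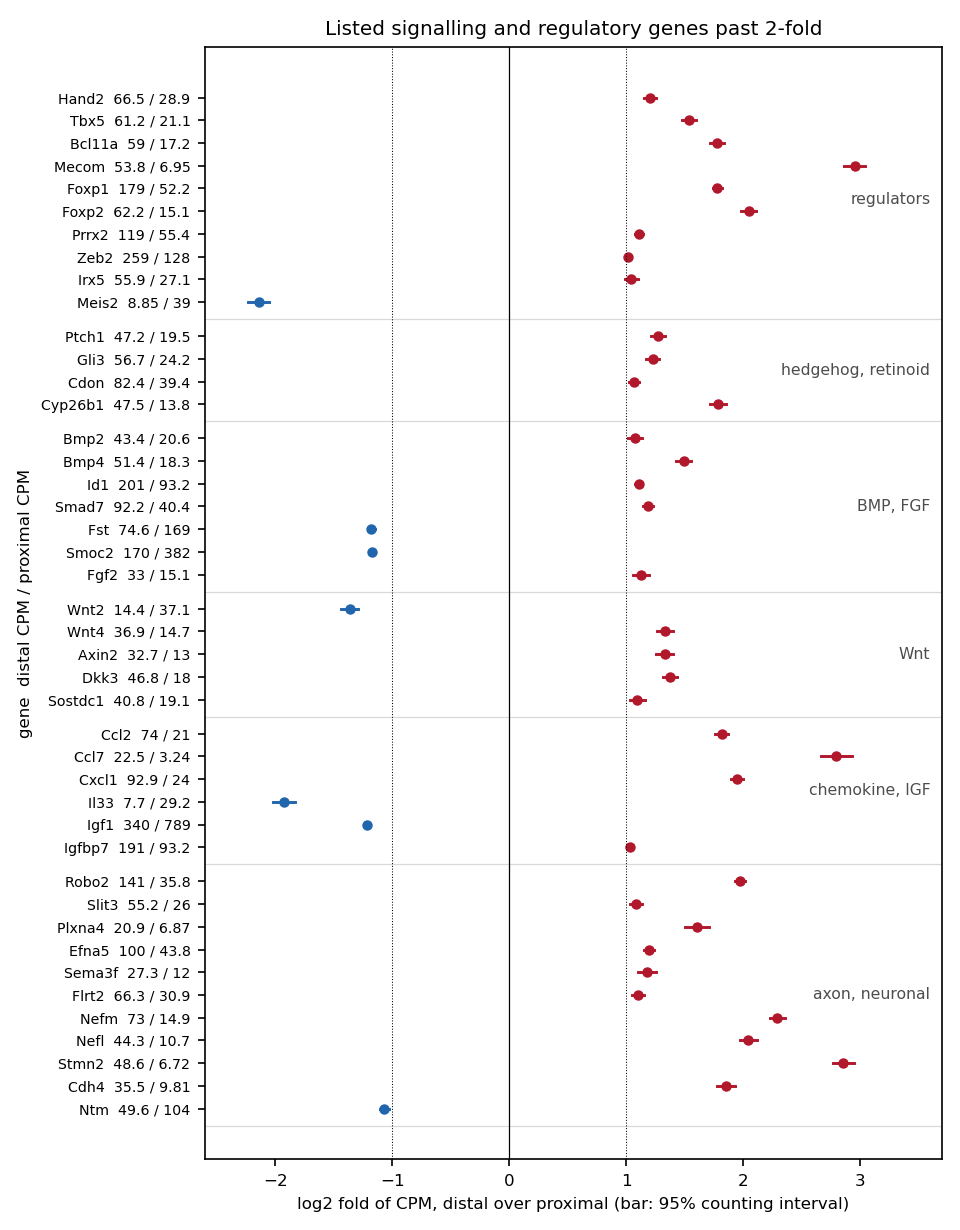
Log2 fold of CPM, distal over proximal, of signalling and regulatory genes of the lists that passed 2-fold, 1 gene per line with its distal and proximal CPM beside the name, bars for the counting interval and dotted lines at 2-fold. Red points (higher distally) prevail in each group of genes, and blue points (higher proximally) are *Meis2*, *Fst*, *Smoc2*, *Wnt2*, *Il33*, *Igf1* and *Ntm*. Among all genes past 2-fold 72.5% were higher distally (53.2% with median-of-ratios scaling), so this is not read as a trait of these groups.

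Genes of single tissues differed less evenly. Of 22 dermal fibroblast genes, 4 were higher distally and 0 proximally (median 0.57). The summed level of the list had the other order, at 4765 CPM in distal and 5996 in proximal cells. Among the 4 was *Trps1*, a transcriptional repressor that acts in hair and joint development, at 164 and 59.7 CPM (2.75-fold, 2.69 to 2.82). Of 21 tendon genes, 5 were higher distally and 0 proximally (median 0.26), with the carboxypeptidase-like *Cpxm2* at 40.6 and 8.95 CPM, the water channel gene *Aqp1* at 51.9 and 19.6 CPM and *Tnc*, a matrix glycoprotein of tendon, at 73.2 and 22.0 CPM. Tenomodulin (*Tnmd*), the marker of mature tendon on that list, had the other order at 205 and 348 CPM and stayed within 2-fold. Of 13 joint genes, 4 were higher distally and 0 proximally (median 0.17), including *Enpp1*, which makes pyrophosphate, at 21.7 and 5.66 CPM, and *Nfatc1* at 48.8 and 20.1 CPM. Of 10 osteogenic genes 1, *Mef2c*, was higher distally at 115 and 53.7 CPM (median -0.01).

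Among 27 universal fibroblast genes, 2 were higher in each direction and the median was 0.02. *Hmcn1*, a large matrix protein gene, was at 125 CPM in distal and 31.3 in proximal cells, and *Pi16* at 37.2 and 16.6 CPM, whereas *Anxa3* was at 26.8 and 62.8 CPM and *Dpp4* at 9.44 and 20.5 CPM. Thus *Pi16* and *Dpp4*, both used to name the same fibroblasts, were higher at opposite ends. Of 14 muscle interstitial genes, *Entpd2* alone was past 2-fold, and the median was -0.27, although the summed level of the list was 1899 CPM in distal and 1603 in proximal cells. Of 8 pericyte genes, *Kcnj8* alone was past 2-fold, the median was 0.08 and the sums were 383 and 387 CPM. Of 55 matrix genes, 3 were higher distally (*Tnc*, *Col8a1* and *Spon1*), 2 proximally (*Efemp1* at 16.6 and 48.9 CPM, *Nid2* at 49.3 and 101 CPM), and the median was 0.08. *Col8a1* and *Spon1* were below 2-fold under median-of-ratios scaling (0.88 and 0.92), in the *Malat1* range (0.81 and 0.88) and after span subtraction (0.55 and 0.50).

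Division genes gave a mixed picture. Of 10 replication-dependent histone genes, 4 were higher distally and 0 proximally (median 0.89), with *Hist1h2ap* at 86.7 and 21.2 CPM, *Hist1h4d* at 71.8 and 20.2 CPM, *Hist1h3c* at 20.6 and 5.60 CPM and *Hist1h1e* at 89.6 and 41.1 CPM. Their copies are near-identical, so the counts of single members are uncertain. Of 19 mitosis genes, 0 passed 2-fold in either direction and the median was -0.27, that is on the proximal side. The 20 glycolysis and hypoxia genes also had 0 past 2-fold (median 0.01).

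Predicted genes and short or long gene spans stood out among the largest ratios. Gene models named Gm were 5 of the 190 distal-higher, 9 of the 72 proximal-higher and 35 of all 6070 genes. Distally *Gm10076* was at 612 and 65.9 CPM, *Gm42418* at 5599.5 and 1228 CPM and *Gm26778* at 56.7 and 10.4 CPM. Beside *Gm42418*, *AY036118* was at 474 and 137 CPM and *Lars2* at 188 and 54.6 CPM, genes often read for RNA quality, and their part in these values was not tested. Proximally *Gm3550* was at 2.09 and 84.3 CPM, *Gm10263* at 1.4 and 53.9 CPM, *Gm10036* at 2.27 and 24.6 CPM and *Gm9843* at 30.3 and 132 CPM. *Gm10263*, *Gm10036* and *Gm9843* are processed pseudogenes, and 5 of the 8 processed pseudogenes at the minimum were among the 72. Reads of such models can be shared with near-identical copies, so their values are uncertain, as is that of *Spag7* (53.4 and 8.58 CPM), which had the same order in the cells described next.

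The cells that had been set aside come from the same libraries and were not used to choose the genes. Of 1283 proximal and 218 distal cells over the epithelial limit, only the 901 and 69 with at least 30 epithelial UMIs were read here as epithelial. This cut was chosen after the values had been seen. The cartilage cells read were 1204 proximal and 560 distal ones. Median depth was 29733 UMIs in distal and 39236 in proximal epithelial cells. Of the genes at the minimum in epithelial cells, 48 of 87 distal-higher and 18 of 33 proximal-higher ones were past 2-fold in the same direction, where 6.42% and 2.20% of all genes were. They included listed genes, as *Bcl11a* was at 61.6 CPM in distal and 17.7 in proximal epithelial cells, *Ptch1* at 34.6 and 11.4, *Bmp2* at 33.8 and 10.6, *Trps1* at 52.8 and 12 and *Hist1h2ap* at 83.4 and 8.33 CPM. In epithelial cells *Gm10076* was at 682 CPM distally and 66.9 proximally, *Gm3550* at 2.01 and 88.4 CPM, *Gm10263* at 2.42 and 60.1 CPM, *Spag7* at 44.7 and 4.83 CPM and *Gm42418* at 3651 and 1243 CPM. *Gm26778* was at 3.22 and 2.41 CPM, below the minimum. Some other named genes were rarer in epithelial than in kept cells, with a thinned share of cells with a *Mecom* UMI of 1.45% against 13.4% in kept distal cells, of *Cacng4* of 0% against 9.41%, and of *Tmeff2* of 1.33% against 20.1% in kept proximal cells. *Itm2a* was found in 25.6% of proximal epithelial and 90.2% of proximal kept cells. Some genes had the other arrangement. *Meis2* was found in 18.8% of distal epithelial and 2.26% of distal kept cells and was reversed between the segments in epithelium, at 49.2 CPM in distal and 21.8 in proximal cells. *Fgfbp1* was found in 55.1% of distal and 62% of proximal epithelial cells, against 4.07% and 0.545% of kept cells.

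In the cartilage cells 85 of 144 distal-higher and 26 of 40 proximal-higher genes at the minimum were past 2-fold in the same direction, where 6.01% and 2.20% of all genes were. Several regulators kept their order. *Mecom* was at 136 CPM in distal and 41.6 in proximal cartilage cells (3.0 to 3.54), *Cacng4* at 44.5 and 5.87 CPM, *Robo2* at 197 and 18.7 CPM (9.50 to 11.7) and *Foxp2* at 193 and 39.8 CPM. *Asb4* was at 5.25 and 79.0 CPM, *Meis2* at 0.552 and 16.2 CPM, *Itm2a* at 1802 and 5800.3 CPM and *Igf1* at 52.0 and 187 CPM. *Shox2*, within 2-fold in the kept cells, was at 18.8 and 124 CPM. *Hand2* (33.7 and 28.0 CPM) and *Tbx5* (71.4 and 42.2 CPM) were within 2-fold there. Others did not keep the order, as *Bmp2* was at 60.9 and 63.6 CPM, *Wnt4* at 20.3 and 38.0 CPM, *Kcnj8* at 4.51 and 3.30 CPM and *Ccl7* at 0.460 and 1.39 CPM.

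Long genes leaned distally. The median genomic span was 72.2 kb for distal-higher, 9.37 kb for proximal-higher and 26 kb for all genes at the minimum, and 45.7%, 6.94% and 14.4% of them reached 100 kb. The median log2 ratio was -0.20 for genes under 10 kb, -0.04 from 10 to 30 kb, 0.25 from 30 to 100 kb and 0.47 above. The nuclear RNA *Malat1* moved with it, at 30826 CPM in distal and 14545 in proximal cells, and *Neat1* was at 151 and 82.4 CPM. After the median of genes of like span was subtracted, 126 genes were higher distally and 85 proximally, and among cells of a common *Malat1* range 105 and 53. Of the 57 listed genes past 2-fold distally, 40 and 39 stayed past it. *Mecom* kept log2 ratios of 2.24 and 2.21, *Foxp1* of 1.22 and 1.12 and *Bmp4* of 1.67 and 1.39, while *Zeb2* was below 2-fold with 0.55 and 0.93. All 3 hedgehog genes fell below 2-fold after the span median was subtracted, *Ptch1* with 0.90, *Gli3* with 0.65 and *Cdon* with 0.66. In the *Malat1* range *Ptch1* had 1.01, *Gli3* 0.93 and *Cdon* 0.77, and *Cdon* was also below 2-fold under median-of-ratios scaling with 0.92. The 4 axon guidance genes below 2-fold after the span median was subtracted were *Slit3*, *Efna5*, *Plxna4* and *Flrt2*, with spans of 587, 277, 444 and 93 kb and log2 ratios of 0.52, 0.63, 0.93 and 0.69. *Cdon*, *Col8a1*, *Fgf2*, *Flrt2*, *Igfbp7*, *Irx5*, *Mef2c*, *Slit3*, *Spon1* and *Zeb2* were below 2-fold in each of these 3 alternatives, the median-of-ratios scaling included. *Sostdc1*, *Fos*, *Prrx2* and *Nfatc1* were below it in some of them, as were *Dkk3*, *Zfp36*, *Trps1*, *Pi16*, *Sema3f* and *Hist1h1e*. Of proximal-higher genes, *Dpp4*, *Efemp1*, *Nid2* and *Ntm* were below it in the *Malat1* range, as was the neurotrophin receptor gene *Ngfr* of the perineurial list (26.4 and 54.4 CPM), and the cartilage collagen gene *Col9a2* (17.3 and 36.6 CPM) was below it after span subtraction. Gene span, *Malat1* level, software version and limb segment cannot be told apart here.

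To see which cells carried the differences, cells were thinned to 3000 UMIs and gated by the presence of at least 3 markers of a kind. Such a gate is a range of a per-cell score and not a type, and many cells lie 1 marker below it. Universal fibroblast markers gated 19.3% of distal (18.4 to 20.2) and 25% of proximal cells (24.1 to 25.9), or 43.1% and 55.9% without thinning. Tenocyte markers gated 7.59% (7.01 to 8.2) and 11% (10.3 to 11.7), or 22.1% and 28.0% unthinned. Dermal markers gated more distal cells, 17.7% (16.9 to 18.6) against 13.1% (12.4 to 13.8), or 35.5% and 31.4% unthinned. Muscle interstitial markers gated 1.93% (1.63 to 2.26) and 4.23% (3.82 to 4.68), or 21.6% and 43.4% unthinned, and of these cells 140 of 148 and 330 of 365 had exactly 3 markers. Pericyte markers gated 1.15% (0.921 to 1.41) and 2.47% (2.15 to 2.82), and mitotic markers 9.90% (9.24 to 10.6) and 15% (14.2 to 15.8). Some markers of a gate differed themselves. Higher proximally were *Entpd2* and *Osr1* (34.2 and 60.4 CPM) in the interstitial and *Kcnj8* in the pericyte gate. So were *Tnmd* in the tenocyte and *Ngfr* in the perineurial gate. In the universal fibroblast gate *Pi16* was higher distally, and *Anxa3* and *Dpp4* proximally. Joint markers gated 0.769% of distal and 0.394% of proximal cells, osteogenic markers 0.143% and 0.0464%, perineurial 0.0261% and 0.0928%, endothelial 0.0130% and 0.104%, and myogenic 0% and 0.0580%. Immune and glial gates held 0 of 7669 and 0 of 8622 cells, which allows shares of up to 0.0391% and 0.0348%, taking 3 cells as the limit that a count of 0 allows. No gate took 49.5% of distal and 41.1% of proximal cells.

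The named genes were then read in cells that passed a single gate, so these sets are smaller than the gates above. Cells that passed several gates (594 distal and 1004 proximal) formed a set of their own, as did ungated cells. Sets with few cells in a library were not read, which left 8 sets. The same cells chose the named genes for the largest ratios, so the counts that follow were largely fixed by that choice and are no support for it. Of the named genes at the minimum within a gate, 15 of 15 distal-higher and 14 of 14 proximal-higher ones were past 2-fold in the same direction among universal fibroblast gated cells, where 3.1% and 1.49% of all genes were. The counts were 7 of 7 and 10 of 10 among tenocyte gated cells (1.59% and 0.812% of all genes), 7 of 7 and 5 of 7 among dermal gated cells (3.43% and 0.999%), and 13 of 13 and 14 of 14 among ungated cells (4.44% and 1.55%). In universal fibroblast gated cells *Cacng4* was at 48.7 CPM in distal and 4.49 in proximal cells (10.9-fold, 9.14 to 13), *Itm2a* at 1987 and 5941 CPM (2.99-fold, 2.96 to 3.02) and *Fabp4* at 4.34 and 64.5 CPM (14.8-fold, 12.3 to 18.1). *Meis2* was lower distally in each of the 8 sets of cells, with 3.27 and 22.1 CPM in tenocyte gated, 16.8 and 90.2 CPM in dermal gated and 7.47 and 35.2 CPM in universal fibroblast gated cells. *Mecom* was highest distally in the ungated cells (83.4 and 8.18 CPM), and its pericyte gated values rest on 11 and 9 UMIs. *Gli3* had log2 ratios between 0.97 and 1.29 in all 8 sets. *Igf1* was lower distally in all of them, from -0.73 in universal fibroblast to -2.10 in pericyte gated cells. With both libraries weighted to a common mix of gates, 180 genes were higher distally and 63 proximally.

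The size of the difference varied among the gates for some genes. *Cxcl2* was at 694 CPM in distal and 33.4 in proximal pericyte gated cells, so that 1016 of its 3174 distal UMIs lay in 62 cells. *Ccl2* was at 131 and 11.9 CPM in dermal gated cells. *Wnt2* was at 50.9 and 133 CPM in universal fibroblast gated cells but at 6.91 and 5.98 CPM in ungated ones. *Wnt4* was at 151 and 54.4 CPM in dermal gated and at 5.46 and 12 CPM in pericyte gated cells. *Foxp1* was at 239 and 42.9 CPM in ungated but at 37.0 and 33.0 CPM in dermal gated cells, *Tgfbi* at 196 and 24.3 CPM in interstitial but at 164 and 157 CPM in tenocyte gated cells. *Hist1h2ap* reached 487 and 80.9 CPM in mitotic gated cells, and *Nefm* 206 and 12.7 CPM in interstitial gated ones, which held 84 and 179 cells. None of these contrasts between gates was tested.

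**Figure D3:**
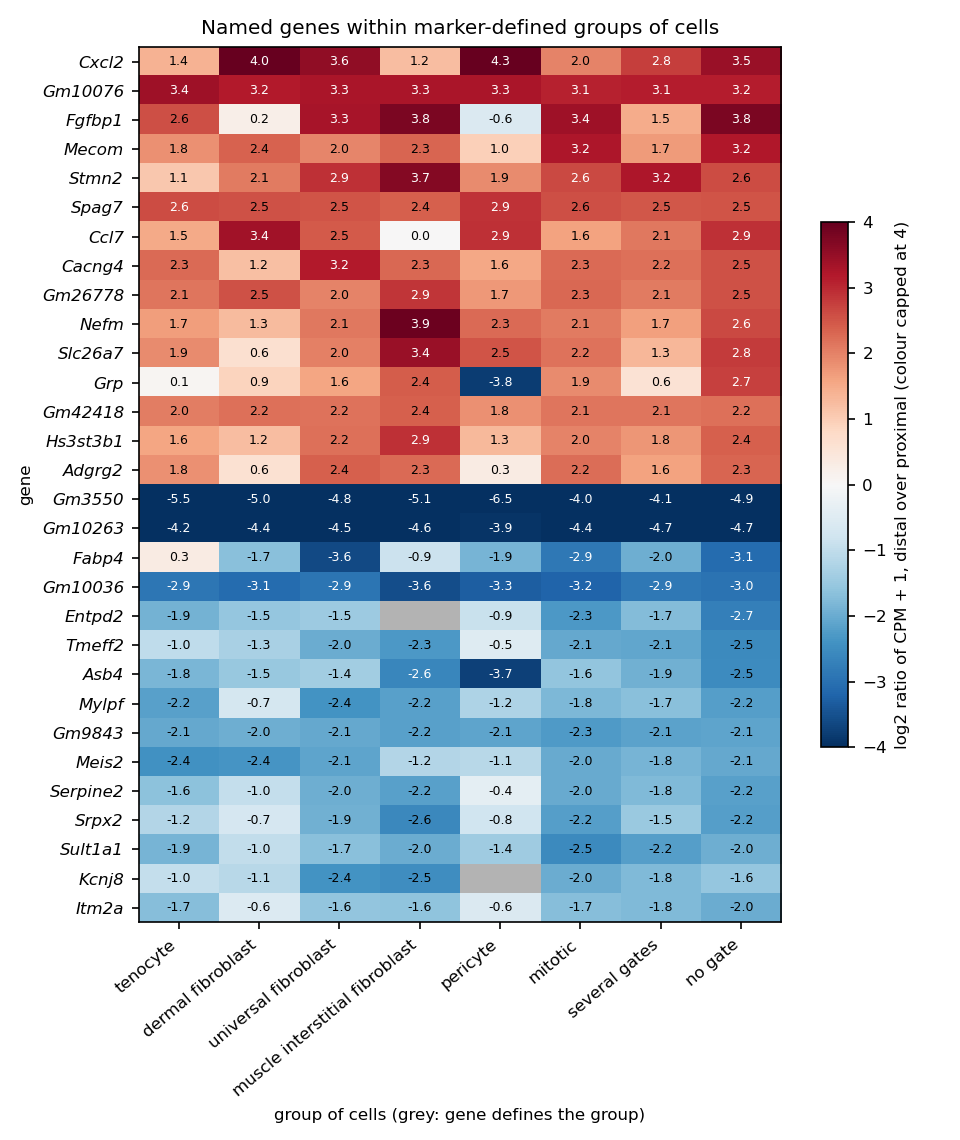
Log2 ratio of CPM + 1, distal over proximal, of each named gene (lines) within 8 groups of cells (columns). The groups are cells of a single gate, of several gates or of no gate. Red is where distal and blue where proximal cells were higher, with grey where the gene is itself a marker of the gate. *Mecom*, *Meis2*, *Asb4* and the predicted genes keep 1 direction in all 8 groups, and *Grp* turns in the pericyte gate, where distal cells had 0 and proximal cells 34 UMIs. On few UMIs, *Fgfbp1* (1 distal and 4 proximal) turns there too, as does *Fabp4* in the tenocyte gate (8 and 6).

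The other libraries place the E16.5 levels in time, and they were not used to choose the genes. They are of whole forelimbs. Among them are the E11.5 libraries that were not sorted for the reporter and hold cells with and without it. In these tdTomato was at 3.90 and 4.23 CPM, so comparisons with the other 6 libraries mix sorted cells with cells not sorted for it. The reagent kit changed between E13.5 and E14.5, so stage and kit cannot be told apart across that step. *Mecom* was at 157, 127, 110 and 56.4 CPM in sorted cells from E11.5 to E14.5, so the distal level of 53.8 lay near that of E14.5 and the proximal one was the lowest of the 8 libraries. *Foxp1*, *Gli3*, *Hand2* and *Tbx5* had the same arrangement, with proximal levels below those of the other 7 libraries, as *Foxp1* was between 70.3 and 186 CPM and *Tbx5* between 61.2 and 220.0 CPM elsewhere. The opposite was seen for *Asb4* at 265, 137, 74.7 and 25.9 CPM and *Meis2* at 87.6, 28.4, 13.7 and 24.7 CPM, where the distal library was the lowest. Genes such as *Itm2a* (361, 501, 679 and 1386 CPM), *Igf1* (21.7, 70.3, 79.6 and 269 CPM) and *Tmeff2* (10.8, 23.2, 29.8 and 43.2 CPM) were higher at each later stage up to E14.5 and highest in the proximal library. In the distal library *Itm2a* (1189 CPM) and *Tmeff2* (19.6 CPM) were below their E14.5 levels, and *Igf1* was above its own. *Cxcl2*, *Ccl7* and *Fgfbp1* were at no more than 1.26 CPM in the other 6 libraries, and *Slc26a7* and *Adgrg2* at no more than 12.9 CPM. *Gm10263* was between 66.8 and 290.0 CPM in the other 6 and at 1.4 CPM only in the distal library, *Gm10076* between 29.0 and 105 CPM and at 612 only there, and *Spag7* between 33.5 and 59.8 CPM and at 8.58 only in the proximal library. Over all 190 distal-higher genes, the E14.5 level was nearer the distal than the proximal one for 65 (34.2%), against 37.3% of all genes. For the 72 proximal-higher genes it was nearer the distal one for 46 (63.9%). The proximal library was below the other 6 for 59 of the 190, and for 2405 of all 6070 genes. The distal library was above the other 6 for 129 of the 190, and for 1663 of the 6070.

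**Figure D4:**
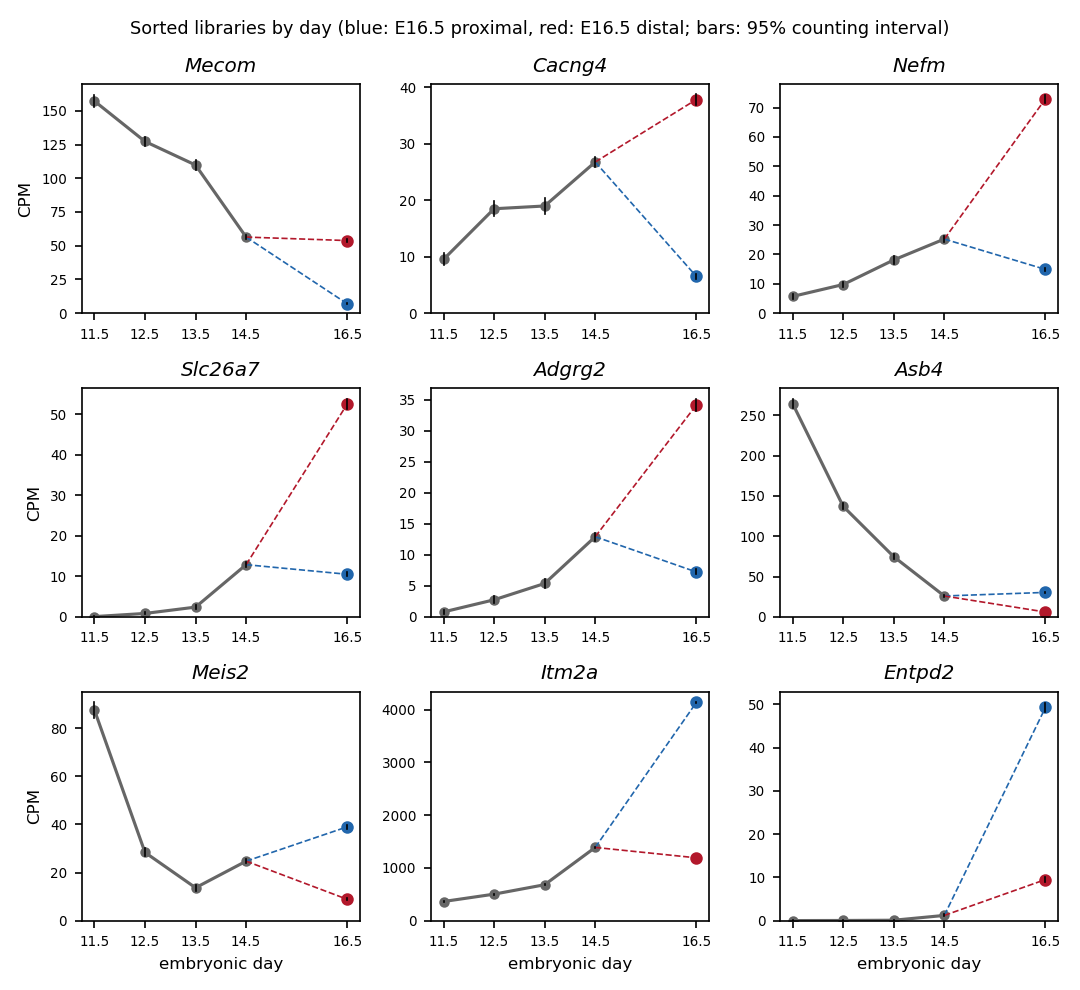
CPM of 9 named genes in the sorted libraries by embryonic day, each panel on a linear axis from 0, with grey points for E11.5 to E14.5, red for the E16.5 distal and blue for the E16.5 proximal library, and bars for counting intervals. *Mecom* and *Asb4* lie lower at each later day up to E14.5, at 56.4 and 25.9 CPM, and then differ between the segments at E16.5.

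Since *Hoxa13* and *Hoxd13* mark the autopod, cells of the whole-forelimb libraries were split by whether they held a UMI of either gene after thinning. Such cells made up 3.65% of the E12.5, 7.24% of the E13.5 and 17.5% of the E14.5 library, 24.8% of the E16.5 distal and 0.638% of the proximal cells. In E14.5 cells *Mecom* was at 136 CPM with and 50.7 CPM without such a UMI, a ratio between 2.40 and 2.98, and its log2 ratio was 1.20 at E13.5 and 1.30 within the E16.5 distal library. At E12.5 it was not higher in such cells, at 129 and 139 CPM. *Meis2* was at 3.10 and 29.2 CPM at E14.5, *Asb4* at 8.0 and 29.5 CPM, *Itm2a* at 427 and 1587 CPM and *Tmeff2* at 18.6 and 41.7 CPM. Thus 1 of 7 named distal-higher genes at the minimum was at least 1.5-fold higher in the Hox13-positive cells of E14.5, where 3.48% of all genes were, and 4 of 9 named proximal-higher genes were at least 1.5-fold lower, where 3.74% were. Among listed genes, *Igf1* had a log2 ratio of -2.02, *Hmcn1* of 1.33, *Cdh4* of 1.22, *Foxp1* of 1.10, *Bcl11a* of 1.09 and *Id1* of 1.04. All of these had the order of the segments. No count over all the listed genes is given, so they do not stand for the lists.

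Other differences between segments did not have this arrangement. At E14.5 *Cacng4* was at 31.5 CPM with and 26.8 without a Hox13 UMI, *Serpine2* at 147 and 135 CPM and *Nefm* at 19.4 and 28.5 CPM, although *Nefm* had log2 ratios of 1.92 in the E12.5 and 1.33 in the E13.5 library. Within the E16.5 distal library *Fgfbp1* (47.6 and 21.9 CPM), *Grp* (59.8 and 26.4 CPM) and *Slc26a7* (85.6 and 43.9 CPM) were higher in the positive cells. *Ccl7* was at 4.72 and 25.3 CPM, and *Ccl2* and *Cxcl1* had log2 ratios of -1.85 and -1.03, so the chemokines that were high in the distal library were low in its Hox13-positive cells. In that library 4 of 14 named distal-higher genes were at least 1.5-fold higher and 1 was lower, where 1.36% and 2.29% of all genes were. Of 3 named proximal-higher genes at the minimum there, 0 were lower by 1.5-fold, with *Itm2a* at a log2 ratio of -0.37. The predicted genes and *Spag7* had log2 ratios between -0.12 and 0.58 in the E14.5 and distal libraries wherever at the minimum. A cell without a captured UMI may still express either gene.

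**Figure D5:**
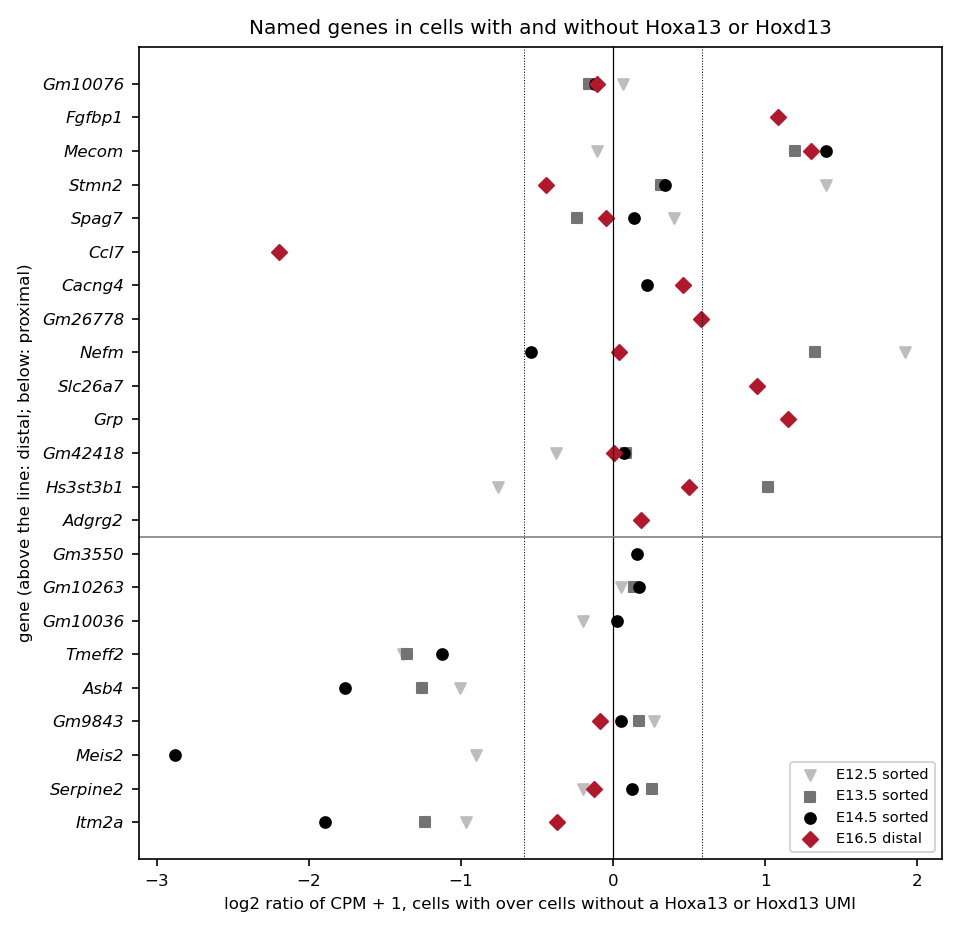
Log2 ratio of CPM + 1 of the named genes at the minimum level, cells with over cells without a *Hoxa13* or *Hoxd13* UMI, in 3 sorted whole-forelimb libraries (E12.5 to E14.5, grey to black) and in the E16.5 distal library (red), with dotted lines at 1.5-fold and no error bars. *Mecom* is high at E14.5 and in the distal library (1.4 and 1.30), and *Meis2*, *Itm2a* and *Asb4* are low at E14.5 (-2.88, -1.89 and -1.76).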

How the data were processed

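Single-cell libraries were made by the authors with 10x Genomics 3′ chemistry (v2 up to E13.5, v3 for E14.5 and E16.5) and aligned to a modified mm10 genome. Per the submitters' processing notes, Cell Ranger 6.0.1 was used for the E16.5 distal library and 3.0.2 for the other sorted libraries. What the authors deposited are unnormalised UMI counts for each cell and each of 28001 features, 3 of which are added sequences. From these counts the cell limits given above were applied, UMIs were summed per library and scaled to CPM with numpy 2.4.6, scipy 1.17.1 and pandas 2.3.3 under Python 3.11.15. Left out of the comparison were 43 Hox and 103 ribosomal protein genes, mitochondrial, globin and sex-linked genes, transgenes and the 12 filter genes.

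Each E16.5 group is 1 library of pooled embryos, so no biological replicate exists and no test was run. Levels have exact Poisson intervals, ratios exact conditional binomial and shares of cells exact (Clopper-Pearson) intervals, which cover counting error only. Genes were named if they were among the 15 of largest ratio of CPM + 1 per direction at 20 CPM or more, or if they belonged to 1 of 37 gene lists and passed 2-fold. A further few are marked as chosen after their values were seen. The members, lists and gates were chosen with earlier results of these data known. Scrublet in scanpy 1.11.5 marked 0 of 8447 distal and 0 of 11109 proximal cells, so that caller had not worked, and doublets were not removed. Alternatives changed the pseudocount, minimum level, scaling, cell weights, cell limits and gates.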

Additional observations from a re-analysis of the deposited data

Results flagged for a closer look

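*Grp* had log2 ratios, distal over proximal, between 0.079 and 2.74 in the other groups of cells, and in ungated cells it was at 52.6 CPM in distal and 7.03 in proximal cells. In pericyte gated cells it had the opposite direction, with a log2 ratio of -3.78 on CPM + 1, where distal cells held 0 and proximal cells 34 of its UMIs. The difference between the gates was not tested. *Fgfbp1* in pericyte gated cells (1 distal and 4 proximal UMIs) and *Fabp4* in tenocyte gated cells (8 and 6 UMIs) also had the opposite sign, within counting error.

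*Stmn2* was split in opposite directions by *Hoxa13* and *Hoxd13* in different libraries. Its log2 ratio, cells with over cells without a UMI of either gene, was 0.34 in the E14.5 library (48.5 and 38.2 CPM) and -0.44 in the E16.5 distal library (43.6 and 59.5 CPM). The difference was not tested.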

How the results depend on the processing

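Against 190 distal-higher and 72 proximal-higher genes, a minimum of 50 CPM gave 91 and 34, and a minimum of 5 CPM gave 376 and 171. Median-of-ratios scaling gave 118 distal-higher genes, and leaving epithelial and cartilage cells in gave 200 proximal-higher genes. In all other alternatives both counts stayed within 1.5 times, apart from a pair chosen after seeing the data. Of these, cells of a common *Malat1* range gave 105 distal-higher genes and subtraction of the median of genes of like span gave 126. Also chosen after seeing the data, leaving out predicted genes gave 185 and 63, and removing the 8% of cells with the highest doublet scores gave 190 and 76. The share of distal-higher genes among those past 2-fold was 72.5%, and it was 53.2% with median-of-ratios scaling, 55% without cell removal and 59.7% after the span median was subtracted. Of 390 ratios of the 30 genes of largest ratio under 13 alternatives, 389 stayed past 2-fold in the same direction, and *Fgfbp1* turned to -1.16 when epithelial and cartilage cells were left in. The same counts had chosen these 30 genes for their large ratios, so this number was largely fixed by that choice and is no support for them. The listed genes past 2-fold were 57 distal-higher and 17 proximal-higher ones, and not all of them stayed past it. Past it in the same direction were 39 and 17 with median-of-ratios scaling, 44 and 12 with a pseudocount of 5 CPM, 51 and 11 without cell removal (where *Wnt4* turned to -0.32), 39 and 11 in the *Malat1* range and 40 and 15 after the span median was subtracted. Differences in gate shares, distal minus proximal, kept their sign. Without thinning they were -5.90 points for tenocyte, -12.8 for universal fibroblast, -21.8 for muscle interstitial, -6.62 for pericyte and -14.4 for mitotic gates. With at least 2 markers they were -5.14 for tenocyte, 6.70 for dermal, -8.42 for universal fibroblast, -5.75 for muscle interstitial and -7.79 for mitotic gates. With at least 4 markers they were -2.27, 2.04, -3.13, -0.302, -0.577 and -3.68 for tenocyte, dermal, universal fibroblast, muscle interstitial, pericyte and mitotic gates. Without cell removal they were -2.07 for universal fibroblast and -1.59 for muscle interstitial gates. The cause of these shifts was not tested. Removal of doublets called by Scrublet gave no value, since it marked 0 cells. No paired analysis was possible because each segment is 1 library and replicate numbers appear only on the whole-limb libraries.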
